A study of Mus musculus with 4 samples.

Results

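Open chromatin was examined at 10 genes of the BCL2 family in large peritoneal macrophages (LPMs). The genes were Bcl2, Bcl2l1, Mcl1, Bcl2a1b, Bcl2l11, Bax, Bak1, Bid, Bbc3 and Pmaip1. Peaks of 4 ATAC-seq libraries were merged wherever they shared 1 bp or more, which gave 70744 regions, and a region was assigned to a gene when that gene's transcription start site (TSS) was the nearest to its midpoint or when it overlapped the gene body. This gave 76 regions, of which 41 lay in a gene body and 12 had the TSS of another gene as the nearest. LPMs (CD45+ B220- CD11b+ CD115+ F4/80hi MHCIIlo) were sorted from the peritoneal cavity of 9-week-old C57BL/6 mice of 2 genotypes. Rxrab fl/fl mice carry floxed Rxra and Rxrb alleles without Cre, and LysMCre+ Rxrab fl/fl mice carry the same alleles with Cre driven by LysM, which is active in other myeloid cells as well as in macrophages. Each genotype has 2 libraries of 40000 cells, Rxrab fl/fl replicates 1 and 3 and LysMCre+ Rxrab fl/fl replicates 1 and 2, all from library batch 1, and they are called control and Cre+ below. The labels do not say whether the libraries of a genotype came from separate mice, so that the errors given here rest on the spread between libraries. They are standard errors from limma, which weighs a region's own spread with that of all regions in the fit. The study left out ATAC-seq samples that did not cluster with their group, which can make that spread too small.

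The BCL2 family decides whether the outer mitochondrial membrane is opened during apoptosis. BCL2, BCL-XL (Bcl2l1), MCL1 and the A1 proteins (Bcl2a1 genes) bind and restrain their pro-apoptotic relatives, BAX and BAK form the pores that release cytochrome c, and the BH3-only proteins BIM (Bcl2l11), BID, PUMA (Bbc3) and NOXA (Pmaip1) free or activate BAX and BAK. Released cytochrome c assembles APAF1 and caspase-9 into the apoptosome. The question put to these data was whether chromatin at the survival and death genes differed between LPMs of the control and Cre+ genotypes, in a study of the retinoid X receptors that Rxra and Rxrb encode. ATAC-seq maps open DNA by the insertion of adaptors by Tn5 transposase. It measures access to a site and not transcription.

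Several of the strongest sites of these genes lay in introns or between genes. The 200 bases around the summit with the largest fold enrichment are shown for 4 such sites that were the strongest of their gene, and for the 2 sites that differed between genotypes by summit pileup, which were chosen after their values were seen. The letters are the mm10 plus strand, and capitals mark matches to any of the motifs searched.
Bcl2 intron, +18.4 kb, chr1:106695778-106695977: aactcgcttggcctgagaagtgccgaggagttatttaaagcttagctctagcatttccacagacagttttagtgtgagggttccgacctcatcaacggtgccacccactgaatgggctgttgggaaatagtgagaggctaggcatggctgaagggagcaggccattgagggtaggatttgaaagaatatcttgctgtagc
Bcl2 intron, +35.9 kb, chr1:106678266-106678465: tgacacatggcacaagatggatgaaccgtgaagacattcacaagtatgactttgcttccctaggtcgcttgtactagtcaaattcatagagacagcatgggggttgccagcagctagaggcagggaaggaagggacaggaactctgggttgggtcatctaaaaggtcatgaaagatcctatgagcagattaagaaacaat
Bcl2l1 intron, +22.3 kb, chr2:152806146-152806345: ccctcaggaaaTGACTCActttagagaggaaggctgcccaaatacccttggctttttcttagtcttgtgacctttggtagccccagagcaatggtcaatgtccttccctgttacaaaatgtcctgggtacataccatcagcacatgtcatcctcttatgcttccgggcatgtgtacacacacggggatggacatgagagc
Upstream of Mcl1, −13.2 kb, chr3:95645387-95645586: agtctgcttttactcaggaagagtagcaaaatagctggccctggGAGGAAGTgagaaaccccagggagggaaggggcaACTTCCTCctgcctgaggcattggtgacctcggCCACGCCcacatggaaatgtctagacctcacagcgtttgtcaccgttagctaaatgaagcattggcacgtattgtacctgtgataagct
Upstream of Bcl2l11, −117 kb, chr2:128008917-128009116: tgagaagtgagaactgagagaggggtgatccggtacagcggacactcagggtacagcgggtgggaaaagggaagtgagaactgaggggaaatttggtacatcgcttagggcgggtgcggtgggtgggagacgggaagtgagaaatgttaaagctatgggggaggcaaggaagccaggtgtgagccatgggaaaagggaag
Downstream of the Bbc3 TSS, +16.0 kb, chr7:16326276-16326475: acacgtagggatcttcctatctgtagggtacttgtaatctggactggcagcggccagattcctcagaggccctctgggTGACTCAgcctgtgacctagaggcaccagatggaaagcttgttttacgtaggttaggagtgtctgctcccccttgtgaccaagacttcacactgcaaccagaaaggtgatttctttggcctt
The window upstream of Mcl1 held 2 matches to GAGGAAGT, the PU.1 motif, on opposite strands, and 1 to CCACNCC, the KLF motif. The windows of Bcl2l1 and Bbc3 each held TGANTCA, the AP-1 motif, and the remaining 3 held no match. Over all 70744 windows of the same length, both strands searched, the PU.1 motif was found in 9.29%, KLF in 21%, AP-1 in 12.7%, the C/EBP motif TTGCNNAA in 11%, the GATA motif AGATAA in 6.41% and the NF-kB motif in 3.38%. Among the 76 member windows the PU.1 motif was found in 13 (17.1%), KLF in 18 (23.7%), AP-1 in 10 (13.2%), C/EBP in 9 (11.8%), and GATA and NF-kB in 1 each (1.32%). The GATA match lay in a Bcl2l1 intron and the NF-kB match at the Bbc3 promoter. No member window held the p53 motif or the RXR half-site repeats DR1 and DR5, which were in 0.0466%, 0.163% and 0.15% of all windows. Matches of different motifs were counted separately where they overlapped. A match describes the letters only, and the windows rest on summit positions that may be displaced by the peak calling.

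The libraries differed in the number of peaks more than in depth. They held 16097 to 65421 peaks and an estimated 9.915 to 18.42 M tags, and control replicate 3 had the fewest of both. Over regions called in all libraries the median summit pileup, the number of tags stacked at the summit, was 97 and 20 in control replicates 1 and 3 and 99 and 65 in Cre+. Of the regions of control replicate 3, 98.2% were shared by every library. The 8 macrophage marker genes had 45 and 24 called regions in control and 56 and 58 in Cre+. A promoter peak was found at 6 and 6 of them in control and at 8 and 8 in Cre+. Csf1r and Itgam had a promoter peak in both Cre+ libraries and in neither control library. Lyz2, Timd4 and Gata6 were among the genes with such a peak in every library. Over the 24 regions of the 8 genes called in every library the median difference, Cre+ minus control, was −0.21 in log2 fold enrichment. Over all such regions it was −0.09. Of the lists of other cells in the cavity, 4 of 6 B cell, 4 of 6 T cell, 6 of 6 neutrophil, 1 of 4 mast cell and 4 of 4 mesothelial genes had a region. Peaks at the promoters of Ebf1, Tcf7 and S100a8 were found in control replicate 1 and both Cre+ libraries, while Cd79a, Cd3g, Cd8a, Cpa3, Mcpt4 and Ms4a2 had no region. The targeted genes had a promoter peak in every library, which does not test the deletion, since peaks outside the deleted exons are not lost with them. Of the 26 Rxra regions, 7 were called in both Cre+ libraries alone, against 22.8% of all regions. By limma on summit pileup 2 Rxra regions were higher in Cre+, as were 2.49% of all regions called in every library.

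All 10 genes had open chromatin at the promoter. A promoter-TSS region here overlaps the span from 1 kb before a TSS to 200 bp after it, and there were 13. All 13 were called in control replicate 1 and in both Cre+ libraries, and 9 also in control replicate 3. Of all promoter-TSS regions in the series, 54.1% were called in every library. The promoters missing from control replicate 3 were those of Bcl2a1b, Bax, Bak1 and Bid, and no promoter was called in 1 genotype only. Over all promoter-TSS regions 9.79% were called in both Cre+ libraries alone.

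**Figure D1:**
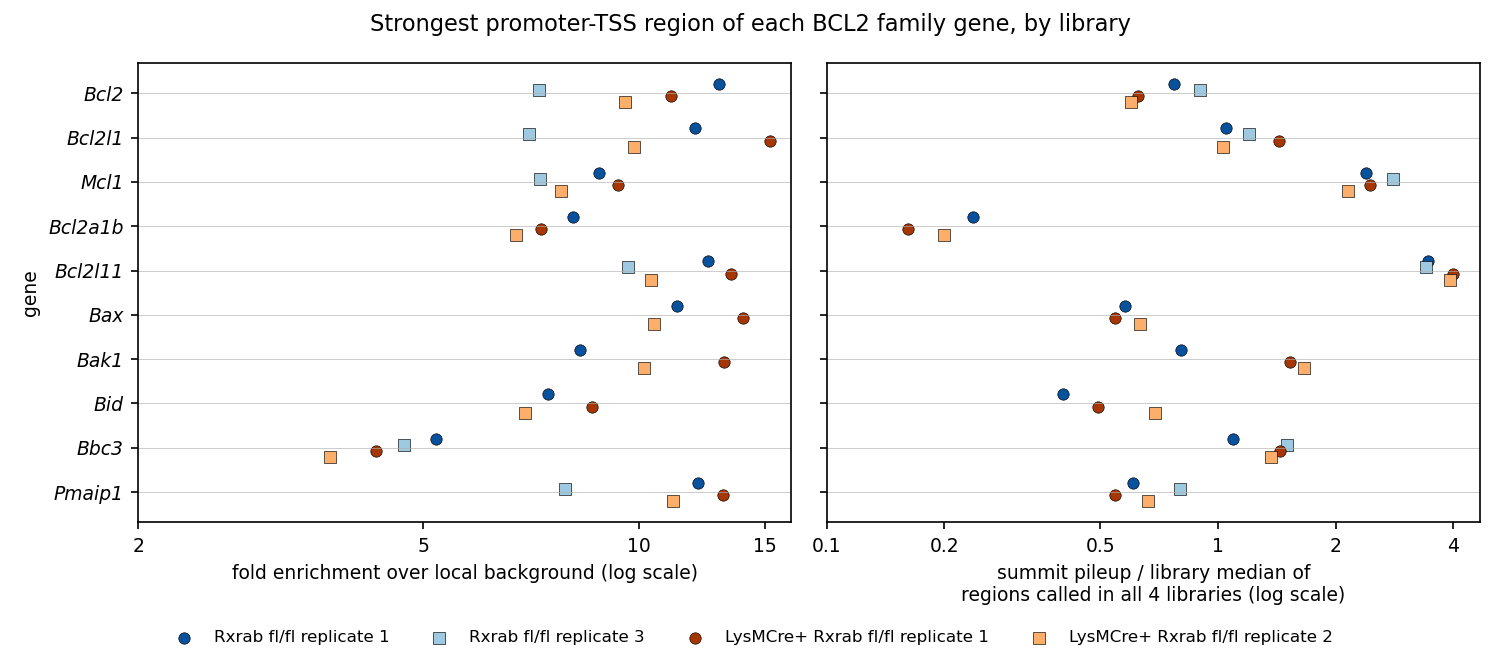
Fold enrichment over local background (left) and summit pileup divided by the library's median over regions called in all 4 libraries (right), both on log axes, at the strongest promoter-TSS region of each gene, with 1 point per library and no point where no peak was called. Bcl2l11 and Mcl1 carried the highest scaled pileups (2.154 to 3.98) and Bcl2a1b the lowest (0.1616 to 0.2371), with control and Cre+ points of a gene mostly side by side.

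By pileup, the BIM promoter was the most open promoter of the 10 genes in every library. At the strongest Bcl2l11 promoter region (chr2:128127203-128128233) the pileup was 335 and 68 tags in control and 394 and 255 in Cre+, above 95.66 to 99.65% of the peaks of each library. The Mcl1 promoter (chr3:95658481-95659122) followed with 232 and 56 tags against 242 and 140. Both stood on a high local background, 25.94, 6.16, 28.42 and 23.64 tags at Bcl2l11 in the same order of libraries and 25.48, 6.84, 25 and 17.14 at Mcl1, so that fold enrichment, the ratio of pileup to background, placed the Mcl1 promoter only above 49.21 to 58.27% of peaks. In units of the library median the Bcl2l11 pileup was 3.454 and 3.4 in control and 3.98 and 3.923 in Cre+, and the groups did not overlap. The difference was 0.21 ± 0.21 on the log2 pileup scale (SE, adjusted p = 0.535, limma) and −0.26 ± 0.23 in log2 fold enrichment (adjusted p = 0.527, limma). Its direction thus depended on the measure and neither passed the test. Without control replicate 1 the difference in log2 fold enrichment was −0.55 (adjusted p = 0.0488, limma), also short of a log2 fold change of 1.

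No promoter of a survival gene passed the test. Bcl2, the founding survival gene, had a fold enrichment at its promoter (chr1:106713675-106714690) of 12.93 and 7.252 in control and 11.09 and 9.569 in Cre+. After centring on each library's median the control values were higher without overlap, but the difference of −0.28 ± 0.21 in log2 fold enrichment did not pass (SE, adjusted p = 0.443, limma). Bcl2l1 had a pair of promoter regions (chr2:152830496-152830901 and chr2:152830994-152831878) with differences of 0.35 ± 0.21 and 0.05 ± 0.22 (adjusted p = 0.344 and 0.919, limma), and the Mcl1 promoter differed by −0.28 ± 0.24 (adjusted p = 0.519, limma). Without control replicate 1 the Mcl1 difference was −0.61 (adjusted p = 0.0304, limma), short of the fold limit. Bcl2a1b, which encodes an A1 protein of blood cells, had 1 region, its promoter, with only 23 tags in control replicate 1 and 16 and 13 in Cre+. At the median-scaled level of those libraries 3.23 to 4.74 tags would be found in control replicate 3, where the lowest pileup of any called peak was 6. A pileup of that size lay below every peak called there. Estimated tags were 9.915 M in control replicate 3 and 10.09 M in Cre+ replicate 2, which called this promoter. Without control replicate 3 the promoter differed by −0.43 in log2 fold enrichment. For the Bax, Bid and Bak1 promoters the same scaling gives 10.9 to 12.6, 8.04 to 13.8 and 16.1 to 33.2 tags, all above that lowest called pileup of 6. Why these promoters were not called there was not tested. The Bcl2a1 genes are near-identical copies whose reads can be lost in mapping, so the Bcl2a1b count is uncertain.

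The pore-forming genes were called at their promoters in all libraries but control replicate 3. At the Bax promoter (chr7:45466364-45467046) fold enrichment was 11.31 in control replicate 1 and 13.96 and 10.5 in Cre+, and pileups were 56, 54 and 41 tags. The Bak1 promoter (chr17:27028460-27028847), shared with Ggnbp1, had 78 tags in control replicate 1 and 151 and 108 in Cre+. Scaled to each library, both Cre+ values at Bak1 (1.525 and 1.662) were above control replicate 1 (0.8041), whereas at Bax the values of 0.5455 and 0.6308 lay on either side of 0.5773. The Bid promoter (chr6:120916444-120917134) had 39 tags in control replicate 1 and 49 and 45 in Cre+, with scaled values of 0.4021 against 0.4949 and 0.6923. In the fit without control replicate 3, which leaves 1 control library taken to vary like the Cre+ libraries, none of these promoters passed. Their differences in log2 fold enrichment were −0.13 ± 0.24 at Bax, 0.25 ± 0.24 at Bak1 and −0.18 ± 0.24 at Bid (SE, adjusted p = 0.749, 0.512 and 0.648, limma). By pileup they were −0.38, 0.58 and 0.14, each ± 0.39 (adjusted p = 0.548, 0.328 and 0.855, limma). The Bak1 intron region at +3.07 kb was called in all libraries, with 106 and 16 tags against 127 and 97, and its scaled pileups did not overlap. Its differences were 0.57 ± 0.24 on the pileup scale (SE, adjusted p = 0.145, limma) and 0.10 ± 0.21 in log2 fold enrichment (adjusted p = 0.805, limma).

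Most of the regions lay away from promoters. Bcl2l11 had 20 regions, more than 98.1% of the 19190 genes with a region, spread from −117 to 145.4 kb around its TSS, 5 of them upstream inside introns of Acoxl. Bcl2l1 had 10, Bcl2 and Mcl1 9 each, Bid and Pmaip1 8 each, Bbc3 6, Bak1 3, Bax 2 and Bcl2a1b 1, against a median of 3 over those genes. In each library in turn, control replicates 1 and 3 and Cre+ replicates 1 and 2, 52, 21, 71 and 65 of the 76 regions were called. Away from their promoters the genes had 39, 12, 58 and 52 of 63 regions called. Over all regions away from a promoter-TSS the counts were 25185, 7617, 50207 and 41475 of 56266. Over all promoter-TSS regions they were 11615, 7861, 13952 and 13158 of 14478. In the same order Bcl2l11 had 12, 3, 19 and 17 called regions and Bid 3, 0, 8 and 7. Bcl2 had 7, 4, 8 and 8, Bcl2l1 8, 3, 10 and 9, and Mcl1 6, 3, 8 and 8. Bbc3 had 5, 4, 6 and 5, Pmaip1 6, 3, 8 and 5, Bak1 3, 1, 2 and 3, Bax 1, 0, 1 and 2, and Bcl2a1b 1, 0, 1 and 1. Only Bax, Bid and Bcl2a1b thus had no region in control replicate 3.

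**Figure D2:**
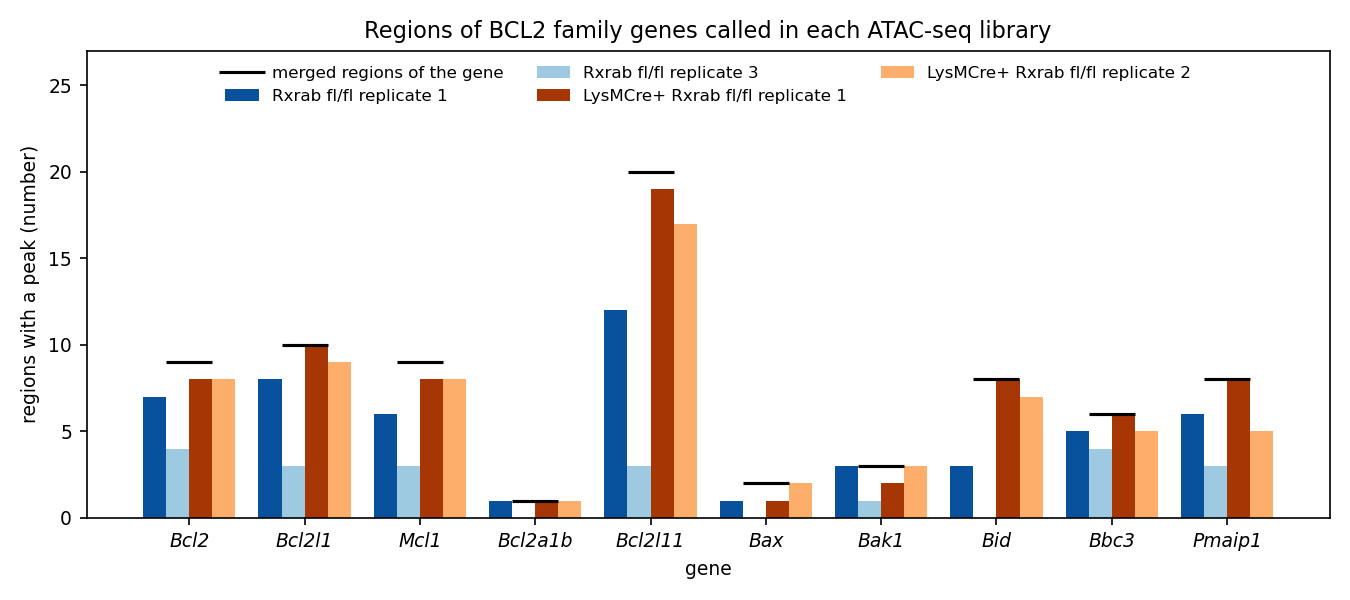
Number of merged regions of each gene with a peak in each library (bars, 1 per library) beside the number of merged regions of the gene (black line). Control replicate 3 has the fewest calls at every gene. Bcl2l11 and Bid have the widest gaps between control replicate 1 (12 and 3) and the Cre+ libraries (19 and 17, and 8 and 7). The whole peak lists were longer in Cre+ as well, with 65421 and 55581 peaks against 38048 and 16097 in control.

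Of the 76 regions, 21 were called in all 4 libraries, against 21.5% of all merged regions, and 26 in all but control replicate 3, against 25.5%. Another 13 were called in both Cre+ libraries and in neither control library. They make up 17.11% of member regions, below the 22.8% of all merged regions. None was called in both control libraries alone, a class that holds 0.0452% of all regions. The remaining 16 were called in 1 library (11) or in another combination (5).

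The 13 regions lay at 4 genes and none at a promoter. Over all regions the class held 9.79% of those at a promoter-TSS and 26.2% of those away from one. Bid, which links death receptors to mitochondria once caspase-8 has cleaved it, had 5 of its 8 regions in this class. Those 5 lay in introns from 5.06 to 30.84 kb downstream of its TSS, the farthest within Bcl2l13, with 14 to 26 tags in Cre+ replicate 1 and 12 to 27 in replicate 2. Bcl2l11 had 5 of 20, at −70.97, 83.76, 113.4, 130.7 and 145.4 kb, with 12 to 47 and 10 to 20 tags. Mcl1 had 2 and Bcl2l1 had 1. The Mcl1 pair lay at 9.188 and 10.45 kb on a background of 26.42 to 51.12 tags, with fold enrichment of at most 4.23. Apart from the Mcl1 pair, their pileups were 0.1212 to 0.4747 of the library median, so the Bid, Bcl2l11 and Bcl2l1 sites were weak beside regions called in every library. Without control replicate 1 the class grew from 13 to 39 regions, because the 26 called in all but control replicate 3 then belong to it. Of all merged regions, 22.8% are in the class with every library kept, and 25.5% were called in all but control replicate 3.

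These counts depended on the length of the peak lists. With the 16097 most significant peaks taken from every library, the members had 27 regions, of which 1 was called in both Cre+ libraries alone and 5 in both control libraries alone. Over all regions of those shortened lists the shares were 7.82% and 7.22%. The 5 belonged to Bcl2 (2), Bbc3 (2) and Bcl2l11 (1), and the 1 to Bcl2, while Bid kept a single region. Markers of small peritoneal macrophages and monocyte-derived cells had more called regions in Cre+, whose peak lists were longer. Their 6 genes, all with a region, had 18 and 5 called regions in control and 41 and 39 in Cre+. Summed fold enrichment was 141.3 and 25.8 against 333.1 and 284. Over their 5 regions called in every library the median difference was 0.56 in log2 fold enrichment, beside −0.09 over all such regions. The study reports Ccr2, Mrc1, Irf4, Retnla and Fcrls of this list as higher in RNA of RXR-deficient LPMs. It also names Fcrls, Retnla, Mrc1 and Ccr2 among loci with more access in its ATAC-seq of RXR-deficient LPMs. The 4 mesothelial genes had 2 and 1 against 10 and 10 regions, and the summed fold enrichment of B cell, T cell and neutrophil genes was 0 to 27.14 in control and 44.74 to 83.1 in Cre+. Mast cell genes had 1 region, called in both Cre+ libraries. The sort gate takes CD11b+ CD115+ cells and leaves out B220+ cells. The part of these cells in the member calls was not tested. In bulk libraries fewer cells with an open site and less opening per cell cannot be told apart.

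**Figure D3:**
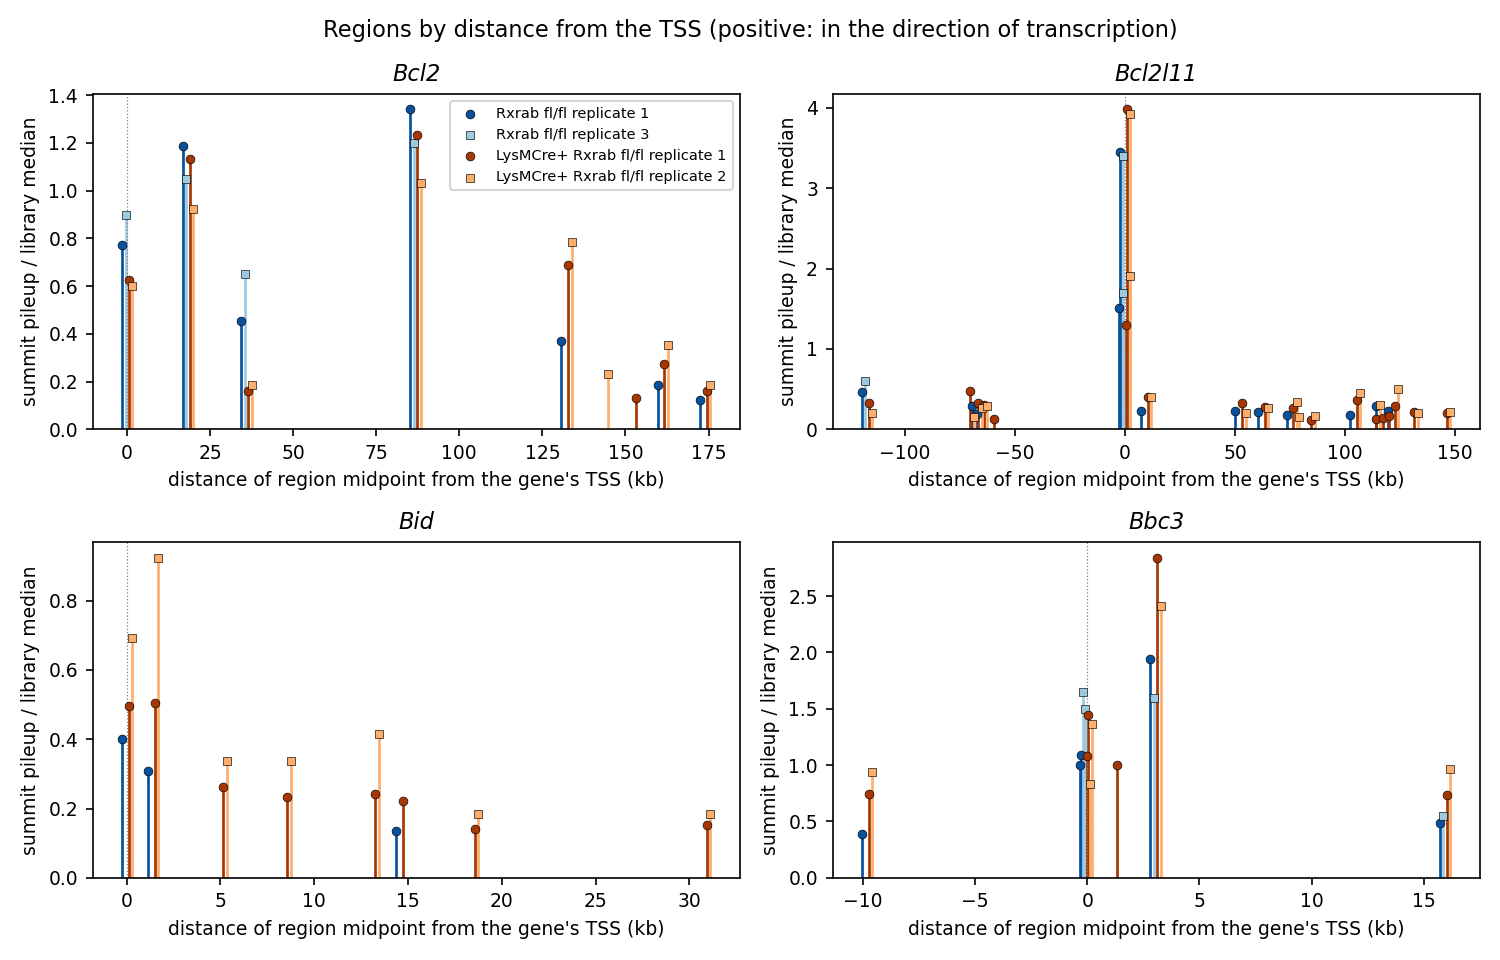
Summit pileup divided by the library's median over regions called in all 4 libraries, against the distance of the region midpoint from the nearest TSS of the gene in kb (positive in the direction of transcription), for Bcl2, Bcl2l11, Bid and Bbc3. Each stem is a library, set slightly side by side. At Bcl2 the site at 35.92 kb is higher in both control libraries (0.4536 and 0.65) than in both Cre+ libraries (0.1616 and 0.1846), and at Bid most stems belong to Cre+.

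The 21 regions called in every library were compared by limma across all 15199 such regions. None passed an adjusted p of 0.05 with a log2 fold change past 1 in fold enrichment, and 6 were under an unadjusted p of 0.05, a level that 22.01% of all regions reached. Over all regions 0.0395% were higher in Cre+ and 0.0461% higher in control. The median difference of the 21 was −0.26 in log2 fold enrichment, with 5 above 0, against −0.09 and 40.99% above 0 over all regions. On the summit pileup 2 of the 21 passed, both higher in control, where 4.98% of all regions did so and 2.49% were higher in Cre+. The pileup median was −0.17 against −0.10 over all regions. Both libraries of a genotype lay beyond both of the other at 11 of the 21 by fold enrichment, 9 of them higher in control, and at 13 by pileup, 8 of them higher in control. Over all regions such separation was found in 32.9% (control higher) and 22.3% (Cre+ higher) by fold enrichment and in 36.9% and 25.2% by pileup. For a single region 2 against 2 libraries cannot give an exact two-sided permutation p under 0.333.

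**Figure D4:**
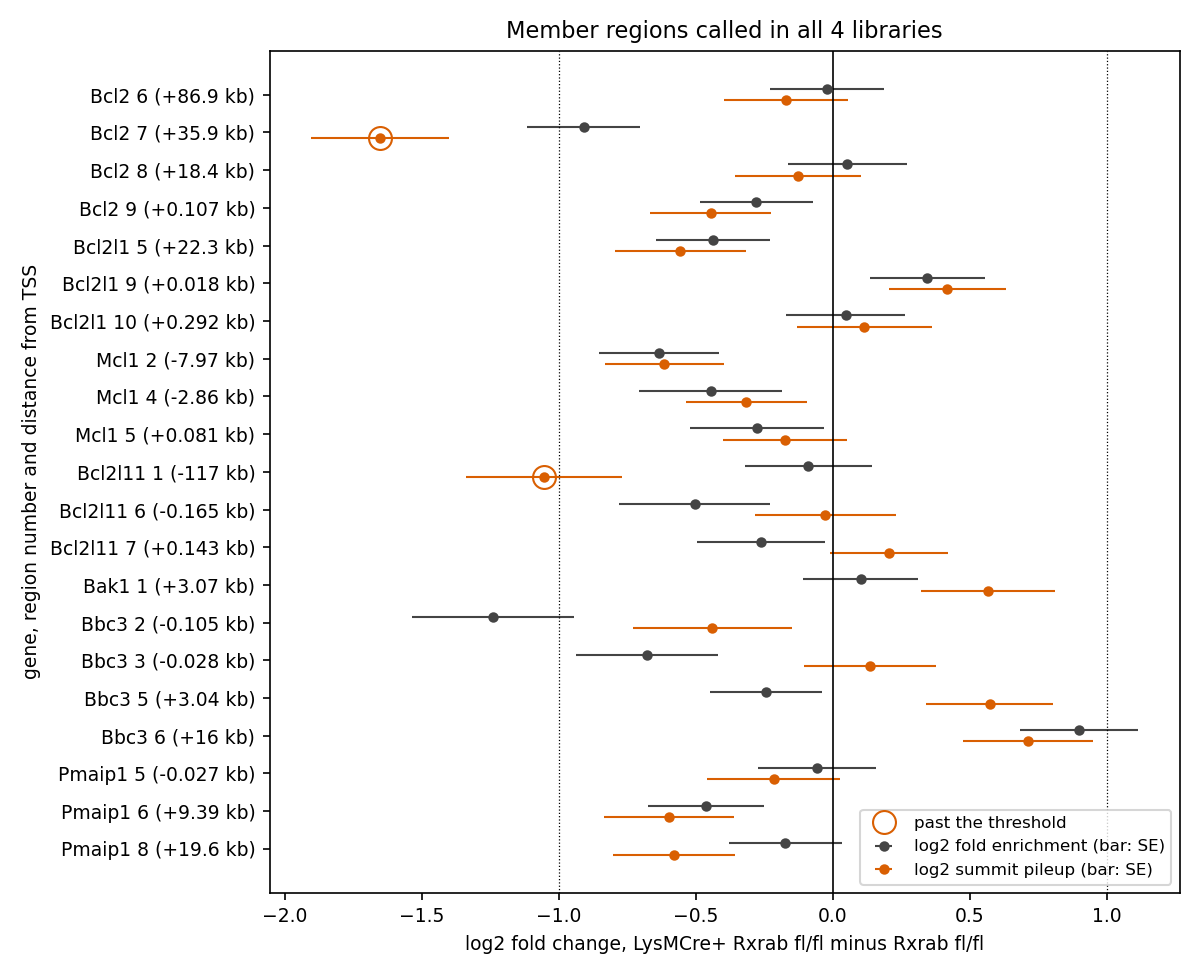
Log2 fold change, Cre+ minus control, of the 21 member regions called in all 4 libraries, with bars of 1 SE from limma, in fold enrichment (grey) and summit pileup (orange), the labels giving gene, region number and distance from the TSS. Circles mark the 2 regions past the threshold on the pileup, in the Bcl2 intron and upstream of Bcl2l11, and the 4 Bbc3 regions spread from −1.24 to 0.90 in fold enrichment.

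The largest pileup difference among the 21 regions lay in an intron of Bcl2. The region at +35.9 kb (chr1:106678125-106678613) had 44 tags (95% Poisson interval 31.97 to 59.07) and 13 (6.922 to 22.23) in control, and 16 (9.145 to 25.98) and 12 (6.201 to 20.96) in Cre+. These intervals cover counting error only. Scaled to the library medians the control values of 0.4536 and 0.65 were both above those of Cre+, 0.1616 and 0.1846. The difference was −1.65 ± 0.25 on the log2 pileup scale (SE, adjusted p = 0.0183, limma) and −0.91 ± 0.21 in log2 fold enrichment (adjusted p = 0.0650, limma). Without Cre+ replicate 2 the pileup difference was −1.76 and no longer passed (adjusted p = 0.100, limma), and without centring it was −0.79 (adjusted p = 0.960, limma). Without control replicate 3, which leaves 1 control library, the difference in log2 fold enrichment was −1.30.

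Other intron sites of Bcl2 did not pass the test. The strongest site of the gene (+18.4 kb, chr1:106695608-106696150) had fold enrichment of 22.66 and 9.322 in control and 23.35 and 16.22 in Cre+, with a difference of 0.05 ± 0.22 (SE, adjusted p = 0.909, limma). At +86.9 kb the difference was −0.02 ± 0.21 (adjusted p = 0.966, limma). The site at +132 kb, not called in control replicate 3, had scaled pileups of 0.6869 and 0.7846 in Cre+ and 0.3711 in control replicate 1, the opposite order to the site at +35.9 kb. The nearest TSS to this site and to the one at +86.9 kb was that of Mir3473f.

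Upstream of Bcl2l11, the region at −117 kb (chr2:128008617-128009491), in an intron of Acoxl, was the other to pass by pileup. It had 45 and 12 tags in control and 32 and 13 in Cre+, and scaled values of 0.4639 and 0.6 against 0.3232 and 0.2. The difference was −1.05 ± 0.28 on the log2 pileup scale (SE, adjusted p = 0.0462, limma) but −0.09 ± 0.23 in log2 fold enrichment (adjusted p = 0.848, limma), where 10.13 and 5.603 stood against 12.41 and 6.731. Without Cre+ replicate 2 it was −0.71 (adjusted p = 0.223, limma), and without centring −0.19 (adjusted p = 0.974, limma). Its local background was 3.54 tags in control replicate 1 and 1.08 to 1.66 in the other libraries.

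Bbc3, the p53-induced gene for PUMA, had regions on both sides of 0. At the intron region of Sae1 16.0 kb from the Bbc3 TSS (chr7:16326188-16326596), its strongest, fold enrichment was 11.71 and 5.128 in control and 19.27 and 18.08 in Cre+. The values did not overlap after centring, and the pileups of 47 and 11 against 73 and 63 did not overlap when scaled. The difference was 0.90 ± 0.22 in log2 fold enrichment (SE, adjusted p = 0.0658, limma) and 0.71 ± 0.24 by pileup (adjusted p = 0.0779, limma). Without control replicate 1 the difference in log2 fold enrichment was 1.02, whereas without control replicate 3 it was 0.44. Without Cre+ replicate 1 or 2 it was 1.02 and 0.78. Each of these fits leaves 1 library in a genotype.

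At the Bbc3 promoter fold enrichment was higher in control without overlap, but did not pass with all 4 libraries. At the promoter region at −0.105 kb (chr7:16309290-16309666) fold enrichment was 4.771 and 5.247 in control and 3.235 and 2.315 in Cre+, with a difference of −1.24 ± 0.30 (SE, adjusted p = 0.0658, limma). The second promoter region differed by −0.68 ± 0.26 (adjusted p = 0.159, limma). By pileup the differences were −0.44 ± 0.29 and 0.14 ± 0.24 (adjusted p = 0.316 and 0.726, limma). Local background at the first was 19.54 and 5.48 tags in control and 32.38 and 22.76 in Cre+, by which fold enrichment is divided and pileup is not. Without control replicate 1 both promoter regions were again lower in Cre+, by −1.78 and −1.08 in log2 fold enrichment. Without control replicate 3 the first differed by −1.03. Each of these fits leaves 1 control library. The intron region at +3.04 kb, with 188 and 32 tags against 281 and 157, differed by 0.57 ± 0.23 by pileup (adjusted p = 0.123, limma) and by −0.24 ± 0.21 in fold enrichment (adjusted p = 0.500, limma).

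At Pmaip1, the gene for NOXA, which binds MCL1, the strongest region lay 9.39 kb downstream of the TSS, beyond the end of the gene. Its fold enrichment was 23.86 and 12.05 in control and 19.7 and 12.83 in Cre+, both control values being higher after centring. The differences were −0.46 ± 0.21 (SE, adjusted p = 0.224, limma) and −0.60 ± 0.24 by pileup (adjusted p = 0.119, limma). Without control replicate 3, which leaves 1 control library, the pileup difference was −1.20. The Pmaip1 promoter differed by −0.06 ± 0.22 (adjusted p = 0.898, limma). Mcl1 was flanked by several upstream sites. Its strongest by fold enrichment, at −13.2 kb (chr3:95645307-95645768), had 11.07 in control replicate 1 and 12 and 8.761 in Cre+, no peak in control replicate 3, and scaled pileups of 0.567, 0.596 and 0.6154 that lay close together. The Mcl1 region at −7.97 kb had 181 and 40 tags in control and 122 and 84 in Cre+, scaled values of 1.866 and 2 against 1.232 and 1.292, and differences of −0.63 ± 0.22 in fold enrichment (adjusted p = 0.130, limma) and −0.61 ± 0.22 by pileup (adjusted p = 0.0890, limma). The strongest Bcl2l1 site, in an intron at +22.3 kb (chr2:152805957-152806486) had fold enrichment of 17.11 and 9.568 in control and 14.29 and 10.42 in Cre+, and differed by −0.44 ± 0.21 (adjusted p = 0.237, limma). The Bcl2l1 region at +60.7 kb was called in all but control replicate 3. In the fit without that library, which leaves 1 control library, it differed by 1.10 on the pileup.

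The rest of the apoptosis machinery was read in the same fit. No region of the 16 other BCL2 family genes, 12 apoptosome and caspase genes, 9 inhibitors of apoptosis, 9 death receptor and adaptor genes or 6 p53-branch genes passed in fold enrichment by limma. Of their regions called in every library, 2 of 14, 3 of 13, 5 of 11, 2 of 12 and 0 of 6 were under an unadjusted p of 0.05, against 22.01% of all regions. Their median differences in log2 fold enrichment were −0.14, −0.30, −0.21, 0.12 and 0.0044, beside −0.09 over all regions. All genes outside the X chromosome had at least 1 region, and Aifm1 and Xiap lie on the X chromosome, from which reads were removed. On the summit pileup no region of the other BCL2 family, death receptor or p53-branch lists passed. Of the apoptosome and caspase list 3 of 13 passed, all at promoters, and of the inhibitors 2 of 11. Over all regions 4.98% passed as higher in control and 2.49% as higher in Cre+. In the order of the lists above, 3 of 14, 6 of 13, 5 of 11, 2 of 12 and 2 of 6 were under an unadjusted p of 0.05 by limma on pileup. Over all regions the share was 33.21%. The promoter of Apaf1, the scaffold of the apoptosome, had 196 and 49 tags in control and 83 and 40 in Cre+, a difference of −1.63 ± 0.25 (SE, adjusted p = 0.0183, limma). The Casp2 promoter had 210 and 42 against 109 and 57 (−1.12 ± 0.23, adjusted p = 0.0256, limma). Casp8, the caspase that death receptors activate and that cleaves BID, went the other way, with 41 and 9 against 76 and 79 tags at its promoter (1.15 ± 0.27, adjusted p = 0.0321, limma). Among the inhibitors, 2 Naip1 regions were higher in control (−1.25 ± 0.23 and −1.18 ± 0.23, adjusted p = 0.0206 and 0.0238, limma). Naip1 is a gene that the study named from RNA-seq of LysMCre+ Rxra fl/fl LPMs. From its ATAC-seq of the genotypes used here it also reports less access at Naip1 and more at Capn2. Naip1 is therefore not independent evidence of direction. Capn2, Mef2c and Cd5l, named by the study in RNA as well, had no region past the threshold here, where limma replaced the study's edgeR test. In log2 fold enrichment their regions called in every library differed by −0.79 to 0.15 at Capn2, −0.05 to 0.31 at Mef2c and −0.13 at Cd5l. Without Cre+ replicate 2 none of these 5 passed (adjusted p = 0.103 to 0.169, limma), with differences of −1.42 at Apaf1, −0.96 at Casp2, 0.81 at Casp8 and −1.39 and −1.19 at Naip1. Without Cre+ replicate 1 both Naip1 regions missed the adjusted p at −1.11 and −1.18 (adjusted p = 0.0585 and 0.0580, limma). Casp8 was lost without control replicate 3 (0.79, adjusted p = 0.163, limma). Without centring none passed.

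Regions called in both Cre+ libraries alone made up 27.42% of the regions of other BCL2 family genes (17 of 62), 14.63% of those of apoptosome and caspase genes (6 of 41), 3.03% of those of inhibitors of apoptosis (1 of 33), 33.33% of those of death receptors and adaptors (17 of 51) and 5% of those of the p53 branch (1 of 20), beside the 22.8% of all regions. Fas, the death receptor, had 5 of its 8 regions in this class and Bik, a BH3-only gene, 3 of 4. No region of these lists was called in both control libraries alone.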

How the data were processed

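ATAC-seq peak lists of 4 libraries were analysed. The authors trimmed adaptors with cutadapt, aligned paired-end reads to mm10 (GRCm38) with Bowtie2, discarded duplicate and poorly mapped reads as well as mitochondrial and sex chromosome reads, and called peaks per library with MACS2 2.1.1 (q value 0.05, extension 200 bp). The deposited lists give fold enrichment, a ratio to local background, at each summit. The deposited −log10 p and −log10 q values and the summit offset were also used. The authors also set a shift in MACS2 whose sign was not clear, so that summit positions may be displaced. Read counts were not analysed here, so the edgeR test of the study was replaced by limma 3.58.1 (R 4.3.3) on log2 fold enrichment of regions called in all libraries, after subtracting each library's median. A call needed a log2 fold change past 1 and an adjusted p (Benjamini-Hochberg) under 0.05. Whole-number pileup and background were solved from fold enrichment and p value with a pseudocount of 1 (tolerance 0.01 in −log10 p), for 100% of peaks to the digits given. Tags per library were estimated from the lowest background, assuming the mouse genome size preset of MACS2. Genes are 43783 curated RefSeq transcripts of 24963 genes of GRCm38, which also gave the sequences.

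All regions of the members were described. For each member the text gives its calls, its strongest region (largest mean log2 fold enrichment), its promoter, and regions called in 1 genotype only. Other genes came from lists. Members and lists were chosen with earlier results of these data known. Pileup at member and pathway regions without a library or centring was added after seeing the data. Other alternatives were a q value of 0.01, equal peak numbers, summits with 100 bp either side, each library left out (the lone library of its genotype then taken to vary like the other genotype), pileup, quantile normalization, a mean-variance trend in limma, regions in at least 2 libraries, no centring, no limit on fold change, and assignment by nearest TSS or gene body alone. The fits and the motif search were tested on simulated data. Scripts used Python 3.11.15, pandas 2.3.3, numpy 2.4.6 and scipy 1.17.1.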

Additional observations from a re-analysis of the deposited data

How the results depend on the processing

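With 2 libraries per genotype and no read counts, values here are those at called summits, and a site without a peak has no value. A peak absent from control replicate 3, the library with the lowest pileups, does not show a closed site. No paired analysis was possible because the genotypes share only replicate number 1.

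Over all regions, 6 were higher in Cre+ and 7 in control. The counts were 23 and 18 with equal peak numbers, 379 and 757 on the summit pileup, 61 and 76 with a mean-variance trend, 9 and 2 with quantile normalization, and 0 and 0 without centring and again with regions called in at least 2 libraries. Leaving out 1 library gave 3 to 757 and 9 to 543 respectively, with 246 and 543 without control replicate 1 and 757 and 425 without control replicate 3. Member regions past the threshold numbered 2 on the pileup and 0 to 3 with 1 library left out. On the pileup itself they numbered 0 without centring. Member regions called in both Cre+ libraries alone numbered 1 with equal peak numbers, 5 by gene body alone and 13 to 39 with 1 library left out, and those called in both control libraries alone numbered 5 with equal peak numbers and 1 with summits and 100 bp either side. The member median of −0.26 became 0.11 without centring and 0.21 with regions called in at least 2 libraries, and was −0.33 to −0.20 with 1 library left out. In the first of these the libraries' own medians (7.522 to 15.13 in fold enrichment) stay in the difference. With equal peak numbers fewer regions were tested, 10272. The cause of the other changes was not tested.

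At single regions the direction turned for Bak1 at +3.07 kb without control replicate 3 (−0.36, other libraries left out giving up to 0.23), for Bcl2 at +18.4 kb on the pileup (−0.13), without control replicate 3 (−0.45, against 0.22 without replicate 1) and without Cre+ replicate 1 (−0.04), for the Bcl2l11 promoter on the pileup (0.21) and without centring (0.11), and for the Mcl1 promoter without centring (0.092). None of these 4 regions passed both limits in any setting shown here. Without control replicate 1 the Bcl2l11 (−0.55, adjusted p = 0.0488, limma) and Mcl1 (−0.61, adjusted p = 0.0304, limma) promoters met the adjusted p but not the fold limit. The q value of 0.01 changed none of the 6 summary results.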
